A study of Mus musculus with 47 samples.

Results

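Cell cycle genes were followed across 12 RNA-seq libraries of mouse macrophages that differed in Zmynd8, a chromatin reader protein, in p65 (Rela), the transcription-activating subunit of NF-κB, and in treatment. The members are the genes that the deposited table of lipopolysaccharide (LPS)-treated bone-marrow-derived macrophages (BMDMs) assigns to the KEGG cell cycle pathway map. Hdac1, Hdac2, Ep300 and Crebbp, which belong to general chromatin machinery, were left out of the 227 entries. This gave 223 of 51912 genes, and the rule used annotation alone and no measured value. Of these, 111 are protein-coding and 112 are pseudogenes or non-coding genes. The protein-coding members held 960167 counts over the 6 BMDM libraries, and 103 of them averaged 10 counts or more. Among them single counts reached 26599. The 112 other entries held 531 counts in all, 88 of them had 0 counts in every BMDM library, and 3 reached a mean of 10 counts, so the values below are those of the protein-coding members. Ccna1, Ccnb3, Wee2 and Gm21834 had 0 counts in all 6 BMDM libraries, which allows a level of up to 0.106 to 0.133 CPM, the count scaled to the library total.

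BMDMs came from C57BL/6 mice and were grown with M-CSF (20 ng/ml), the macrophage growth factor. WT animals carry the floxed Zmynd8 alleles without Cre, and cKO animals carry the same floxed alleles with Lyz2-Cre, which is active in macrophages, monocytes and neutrophils. Both genotypes were left without treatment (NT) or given LPS (100 ng/ml), a bacterial product that drives inflammatory (M1) activation, or IL-4 (20 ng/ml), a cytokine that drives alternative (M2) activation, both for 6 h. The other 6 libraries are labelled Raw264.7, a mouse macrophage-like cell line. In the Zmynd8 set, CRISPR-made Zmynd8 KO cells were compared with KO cells given back Zmynd8 (WT Zmynd8) or an acidic-residue mutant (D/E-A). In the p65 set, all labelled as LPS-treated, p65 KO cells were compared with KO cells given p65 (WT p65) or a lysine mutant (K122R). The deposited WT p65 column is headed as WT cells with LPS, so re-expressing cells and unmodified cells cannot be told apart there. The labels give no treatment for the Zmynd8 set, although the study's text describes the RNA of its WT Zmynd8 and D/E-A cells as taken after LPS. A list of 8 LPS response genes summed to 12641 to 17191 RPM (reads scaled to the library total, as CPM) in its 3 libraries, Zmynd8 KO among them with 14673 RPM. The same list summed to 10770 to 15511 RPM in the p65 set, to 110 to 179 CPM in NT BMDMs and to 19779 to 20837 CPM in LPS-treated BMDMs. No LPS dose or time is given for the lines, and the age of the mice is not given. Each condition is 1 library. For the BMDMs the study mixed 3 biological replicates into each library, and it states no such mixing for the lines, so no comparison of 2 libraries below has a replicate check, and its test compares those libraries and not the conditions.

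A cell passes from G1 to DNA replication when cyclin D with Cdk4 or Cdk6, and then cyclin E with Cdk2, phosphorylate the RB proteins and free the E2F factors that switch on replication genes. CDK inhibitors such as Cdkn1a (p21) and Cdkn1b (p27) hold these kinases back. The origin recognition complex, Cdc6 and the Mcm helicase license origins, Cdk1 with cyclin B drives mitosis, the spindle checkpoint delays anaphase, and the anaphase-promoting complex with its activator Cdc20 ends mitosis by destroying securin (Pttg1) and cyclin B. Differentiated macrophages divide little unless M-CSF drives them, whereas a transformed line cycles continuously, and most genes of DNA replication and mitosis are expressed mainly in the phase in which they act. The transcript level of a gene in a bulk library does not separate more cycling cells from more transcript per cell.

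Promoters are shown first because gene groups followed below, those of replication and of mitosis, are known for different promoter elements. Promoters of 87 of the 111 members were found by symbol in the RefSeq table for GRCm38.p6, which gives 300 bases per start, 250 before and 50 after it. The E2F element was searched as TTTGGCGC, TTTGCCGC, TTTCCCGC or TTTCGCGC, the cell cycle homology region (CHR) as TTTGAA, the NF-Y element as CCAAT and the TATA box as TATAAA, each on both strands, and none of the 4 kinds of element contains another. The E2F letters were found in 18 of 87 members (20.7%) and in 704 of all 27025 genes with a promoter (2.60%). The replication genes held them in 7 of 15 promoters, and the RB, E2F and Myc group in 4 of 7. The CCAAT letters were found in 53 members (60.9%, against 41.1% of all genes), including 7 of 8 promoters of mitotic kinases and their switches. The CHR letters were found in 19 members (21.8%), close to the 20.2% of all genes, with 3 of 6 in the spindle checkpoint. TATAAA was found in 10 members (11.5%, against 15.7% of all genes), with 4 of 7 promoters in the DNA damage group. Among the replication genes that fell after LPS, Mcm3, Mcm5, Mcm6, Mcm7 and Cdc6 had the E2F letters. Mcm2, Cdc7, Orc2 and Cdc45 also fell and lacked them, and Orc1 and Orc3 had them but did not pass the test after LPS. A link between the letters and the changes was not tested. These matches describe letters and are not binding sites.

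The 160 bases before the start are printed for 9 members on which the results turn, 5′ to 3′ on the gene's own strand, with matches in capitals (in either direction, overlapping matches merged). The first 4 are replication genes that fell after LPS, IL-4 or both, the next 3 are mitotic genes, and the last 2 rose after LPS.
Mcm5, chr8:75109349-75109508, plus strand: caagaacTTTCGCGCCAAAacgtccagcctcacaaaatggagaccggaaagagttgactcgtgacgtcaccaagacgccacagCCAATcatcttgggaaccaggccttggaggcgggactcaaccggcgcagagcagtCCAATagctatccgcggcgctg
Mcm6, chr1:128359706-128359865, minus strand: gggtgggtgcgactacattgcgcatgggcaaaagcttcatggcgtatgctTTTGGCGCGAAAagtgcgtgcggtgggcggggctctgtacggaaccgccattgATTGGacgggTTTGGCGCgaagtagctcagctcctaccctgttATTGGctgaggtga
Cdc6, chr11:98907991-98908150, plus strand: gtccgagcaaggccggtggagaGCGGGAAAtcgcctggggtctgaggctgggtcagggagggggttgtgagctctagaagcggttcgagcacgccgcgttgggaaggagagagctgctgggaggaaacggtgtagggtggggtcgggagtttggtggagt
Orc1, chr4:108579294-108579453, plus strand: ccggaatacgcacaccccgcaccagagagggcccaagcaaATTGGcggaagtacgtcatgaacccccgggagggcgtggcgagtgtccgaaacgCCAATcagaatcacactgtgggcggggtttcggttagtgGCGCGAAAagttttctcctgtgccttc
Cdk1, chr10:69352913-69353072, minus strand: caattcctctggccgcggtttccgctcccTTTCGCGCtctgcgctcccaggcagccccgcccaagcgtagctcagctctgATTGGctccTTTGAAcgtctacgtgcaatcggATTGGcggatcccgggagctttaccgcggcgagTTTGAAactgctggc
Cdc20, chr4:118437344-118437503, minus strand: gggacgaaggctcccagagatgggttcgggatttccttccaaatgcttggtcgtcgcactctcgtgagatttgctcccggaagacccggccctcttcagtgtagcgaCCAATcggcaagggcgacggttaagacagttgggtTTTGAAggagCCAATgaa
Espl1, chr15:102296133-102296292, plus strand: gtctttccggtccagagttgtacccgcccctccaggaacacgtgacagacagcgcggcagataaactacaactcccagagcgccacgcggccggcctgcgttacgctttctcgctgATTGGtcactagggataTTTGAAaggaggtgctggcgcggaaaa
Rbl1, chr2:157204535-157204694, minus strand: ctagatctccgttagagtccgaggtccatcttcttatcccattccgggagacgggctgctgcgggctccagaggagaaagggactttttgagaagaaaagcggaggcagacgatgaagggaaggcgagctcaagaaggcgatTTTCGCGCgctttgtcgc
Gadd45b, chr10:80929931-80930090, plus strand: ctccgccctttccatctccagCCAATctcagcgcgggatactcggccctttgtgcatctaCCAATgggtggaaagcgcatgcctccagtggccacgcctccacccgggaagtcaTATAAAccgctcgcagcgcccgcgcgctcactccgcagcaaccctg
Mcm5 had 2 overlapping E2F matches, 153 and 149 bases before the start, and Mcm6 had 3, at 110, 106 and 47 bases. Cdc6 and Orc1 each had 1, at 138 and 27 bases. Cdk1, the mitotic kinase, had an E2F match at 131 bases and CHR matches at 71 and 15 bases. Cdc20 and Espl1 (separase, which cuts cohesin) had CHR matches at 18 and 27 bases. Rbl1, the RB-related p107, had an E2F match at 18 bases, although it rose after LPS whereas 10 of 16 replication genes fell. Gadd45b, a stress-response gene, had a TATA match at 46 bases.

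Facts about the libraries bear on every value. BMDM totals ranged from 22597420 to 28386625 counts, and Raw264.7 totals from 15127110 to 21042628 reads. Zmynd8 held 2284 and 1842 counts (87.1 and 81.5 CPM) in WT and cKO NT, 1967 and 2033 with LPS and 3636 and 3944 with IL-4, so that the cKO label went with a lower level in NT alone. Whole-gene counts do not check a deletion of part of a gene, so the genotype rests on the labels, and cKO below means the library labelled so. In the lines Zmynd8 stood at 26.4 RPM in WT Zmynd8 and 27.7 RPM in D/E-A, against 64.3 to 117 RPM in the p65 lines. The deposited signal of Zmynd8 was 116 in Zmynd8 KO and 506 in WT Zmynd8, but that KO value is the 1 of 23772 in its library that is not a whole number of reads (121.46), so it was not taken as a check of the label. Rela stood at 102 RPM in WT p65, at 50.6 RPM in p65 KO and at 351 RPM in K122R. The IL-4 libraries stood apart in other ways. There 8 neutrophil markers summed to 382 and 514 CPM, against 2.33 to 4.22 CPM in the NT and LPS libraries. B cell markers summed to 11.2 and 17.2 CPM against at most 4.78, and Cd79b alone took 10.9 and 16.9 CPM of these IL-4 sums. The IL-4 table also used another annotation, with another length for 101 members. The libraries of the Zmynd8 lines went against the label Raw264.7. The same neutrophil markers took 4422 to 10353 RPM there against 0.18 to 0.32 in the p65 lines, where 0 of 8 reached 10 reads, and B cell markers took 150 to 208 against 6.21 to 8.83. Macrophage markers were present in both (5703 to 10256 and 2354 to 2774 RPM). The parts of these differences in the results below were not tested.

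With LPS, 10 of 16 replication genes and 4 of 8 mitotic kinases and switches fell, and the members that rose, among them Ccne1, Ccnd3, Cdkn2d, Rbl1, Pttg1 and Gadd45b, came from 7 of the 12 roles. For the main test, both genotypes were fitted together with edgeR's quasi-likelihood test (additive in genotype and treatment, TMM scaling, 6 libraries, 2 residual degrees of freedom), and a call needed a fold of at least 1.2 and a Benjamini-Hochberg adjusted p under 0.05. Of 103 members tested, 15 rose and 36 fell, against 25.1% and 25.7% of all 13074 genes. The median log2 fold change was -0.47 over members and -0.03 over all genes. Comparing the WT libraries alone by CPM, on log2(CPM + 1) with a fold of at least 1.2 and an adjusted two-sided exact binomial p under 0.05, 11 members of 101 were higher with LPS and 79 lower, where 20.6% and 61.1% of all genes were. In the libraries labelled cKO, 17 of 103 were higher and 77 lower (23.8% and 58.9% of all genes). Library totals place the median of all genes at -0.58 in WT and -0.55 in cKO after LPS. Scaled by TMM, the split was 21 higher and 53 lower in WT (36.9% and 37.6% of all genes) and 24 and 58 in cKO (38.1% and 39.0%).

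The replication group had the lowest median log2 change of the 12 roles, -1.82, followed by -1.24 in the DNA damage group. By the edgeR test 10 of its 16 members fell and none rose. In both genotypes all 16 were lower by the comparison of libraries on library totals, and by TMM 11 in WT and 14 in cKO. Mcm2, a subunit of the helicase, stood at 50.1 and 59.1 CPM in WT and cKO NT, at 2.05 and 4.99 CPM with LPS, and at 21.9 and 18.3 CPM with IL-4. Both LPS libraries were below all 4 others, and Mcm2 fell by 3.35 ± 0.36 on the log2 scale (SE, edgeR quasi-likelihood adjusted p = 0.000642).
Mcm5 stood at 49.3 and 77.2 CPM in NT, 6.71 and 8.41 CPM with LPS and 19.6 and 21.1 CPM with IL-4, the same order, with a log2 change after LPS of -2.40 ± 0.22 (SE, edgeR adjusted p = 0.000364). Mcm6 stood at 137 and 148 CPM in NT, 16.9 and 18.7 CPM with LPS and 129 and 118 CPM with IL-4, so that it was low with LPS and close to NT with IL-4. Its log2 change after LPS was -2.35 ± 0.19 (SE, edgeR adjusted p = 0.000265). Mcm3 (-2.77), Mcm7 (-2.72) and Mcm4 (-1.49) fell with them, as did Cdc7 (-2.30), the kinase that fires origins, Orc2 (-1.96), Cdc6 (-1.88) and Cdc45 (-1.76). Orc1, which helps to recognise origins, had a log2 change of -0.96 ± 0.55 (SE, edgeR adjusted p = 0.1914). Pcna, the sliding clamp of DNA polymerase, had one of -0.50 ± 0.21 (SE, edgeR adjusted p = 0.0809), from 932 and 1061 CPM in NT to 419 and 475 CPM.

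The cyclins of the G1 group, in which Ccna2 was counted although it acts after G1, moved apart. Ccne1 (cyclin E1) stood at 2.06 and 4.20 CPM in WT and cKO NT, at 22.6 and 18.1 CPM with LPS and at 2.68 and 2.30 CPM with IL-4. Only its LPS libraries were high among these 6, and its log2 change was 3.38 ± 0.38 (SE, edgeR adjusted p = 0.000745). Ccnd3 (cyclin D3) rose from 29.0 and 35.2 CPM to 106 and 80.9 CPM, a log2 change of 2.19 ± 0.23 (SE, edgeR adjusted p = 0.000598). Ccnd1 (cyclin D1) stood at 566 and 437 CPM in NT and at 416 and 572 CPM with LPS, where the groups overlapped and the direction differed between WT and cKO on library totals, with a fitted log2 change of 0.61 ± 0.26 (SE, edgeR adjusted p = 0.0955). Ccne2 had -0.11 ± 0.32. Ccna2 (cyclin A2) fell by 3.97 ± 0.62 on the log2 scale (SE, edgeR adjusted p = 0.0026), from 21 and 114 counts to 1 and 4 counts. In WT the ratio of its CPM was 0.0501, with a 95% Clopper-Pearson interval of 0.0012 to 0.312 that covers counting error only, as do all such intervals here. Cdk4 (-1.45), Ccnh (-1.01) and Cdk2 (-0.84) also fell, whereas Cdk7 (-0.47) did not pass.

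Of 6 CDK inhibitors tested, 3 rose and 2 fell. Cdkn2d (p19, an inhibitor of Cdk4 and Cdk6) had the highest change of any member. It stood at 6.07 and 5.44 CPM in NT, at 101 and 69.8 CPM with LPS and at 3.98 and 7.12 CPM with IL-4, and rose by 4.54 ± 0.37 on the log2 scale (SE, edgeR adjusted p = 0.000269). Cdkn1b rose by 1.28 ± 0.19 and Cdkn1a by 0.90 ± 0.23 (edgeR adjusted p = 0.002 and 0.0175). For Cdkn1a the WT libraries moved from 407 to 564 CPM and the cKO libraries from 502 to 510 CPM, so on library totals the cKO pair was not called. Cdkn1c (p57) fell by 1.70 and Cdkn2c (p18) by 0.99.
Cdkn2a had at most 0.089 CPM and Cdkn2b at most 0.752 CPM in any BMDM library.

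Myc, the growth-promoting transcription factor, had the lowest change of all members. It held 1368 and 1632 counts in WT and cKO NT, 3 and 18 counts with LPS, and 829 and 1045 counts with IL-4. The ratio of CPM with LPS to NT was 0.0023 (95% interval 0.0005 to 0.0068) in WT and 0.0106 (0.0063 to 0.0169) in cKO, and the fitted log2 change was -6.55 ± 0.42 (SE, edgeR adjusted p = 0.000177). Bmyc, a related gene, fell by 3.55. In the same group Rbl1 rose from 27.4 and 15.2 CPM to 101 and 129 CPM, by 3.11 ± 0.32 on the log2 scale (SE, edgeR adjusted p = 0.000545). E2f5 rose by 1.34, E2f2 fell by 1.79 and Tfdp1, a partner of the E2F proteins, by 1.14, whereas Rb1 (-0.31) and E2f1 (-0.41) did not pass.

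Of 8 mitotic kinases and switches tested, 4 fell and none rose. Cdk1 stood at 8.74 and 15.4 CPM in NT and at 2.61 and 2.69 CPM with LPS and fell by 1.51 ± 0.33 on the log2 scale (SE, edgeR adjusted p = 0.01). Cdc25b (-1.66), Ccnb1 (cyclin B1, -1.43) and Cdc25a (-1.01) also fell, whereas Plk1, a mitotic kinase, had -1.46 ± 0.57 (SE, edgeR adjusted p = 0.0733) and Wee1, which restrains Cdk1, had 0.28. In the spindle checkpoint Ttk (-1.90) and Mad2l1 (-0.74) fell, 2 of 6. Cdc20 held 22 and 37 counts in NT and 1 and 4 counts with LPS and fell by 2.89 ± 0.60 (SE, edgeR adjusted p = 0.0077). Pttg1 (securin) moved the other way, from 18.9 and 14.6 CPM to 91.8 and 72.1 CPM, and rose by 2.95 ± 0.26 (SE, edgeR adjusted p = 0.000353). Of 15 members of the anaphase-promoting complex group, 2 rose and 3 fell. Of 5 cohesin members, 3 rose (Stag2 1.12, Rad21 0.84, Stag1 0.75) and Smc3 fell by 1.13. The SCF ubiquitin ligase (3 tested) and TGF-β signal genes (7 tested) had no call, Tgfb1 having -0.65 ± 0.23 (SE, edgeR adjusted p = 0.0518).

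The DNA damage group held members that moved in each direction. Gadd45b rose from 36.1 and 44.3 CPM to 250 and 237 CPM, by 3.27 ± 0.25 on the log2 scale (SE, edgeR adjusted p = 0.000228), and Gadd45g rose by 2.40. Gadd45a, the third of these growth arrest genes, fell by 2.08, from 30.1 and 25.1 CPM to 5.10 and 3.24 CPM. The checkpoint kinases Chek1 (-1.998), Prkdc (-1.66) and Atr (-1.30) and Trp53 (p53, -1.17) fell too, so that 2 of 8 rose and 5 fell. Among the 7 14-3-3 proteins, Ywhaz rose by 0.80 and Ywhah fell by 0.97.

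With 1 library left out at a time, 11 to 20 members rose and 27 to 39 fell, where 20.7% to 26.9% and 20.0% to 27.4% of all genes did, and the 4 NT and LPS libraries alone gave 15 and 31 (23.9% and 23.1% of all genes). Where this left a condition with 1 library, that library was taken to vary like the others. A fit with 1 library left out also had fewer residual degrees of freedom than the whole fit. A call could therefore be lost, here and with IL-4 below, where the log2 change hardly moved. Of the members called in the whole fit, 10 of 15 that rose and 25 of 36 that fell passed in all 6 such fits. Ttk (-1.83 to -1.98) and Cdkn2c (-0.80 to -1.20) lost their calls whichever library was left out, and Mad2l1 in every such fit but the one without WT NT (-0.51 to -0.96). Ccnb1 lost its call without cKO NT (-1.11), cKO LPS (-1.13) or either IL-4 library (-1.43), Cdc6 without WT NT (-1.79), cKO NT (-1.96) or cKO LPS (-1.19), and Cdc45 without cKO NT (-1.504) or WT LPS (-1.53). Chek1 lost it without cKO NT (-1.78) or cKO LPS (-1.72), Cdc16, of the anaphase-promoting complex, without cKO LPS (-0.50) or either IL-4 library (-0.62), Cdk2 (-0.76) and Ccnh (-0.70) without cKO LPS and Ywhah without WT LPS (-0.78). Of the members that rose, Cdkn1a lost it without WT LPS (0.67), Ywhaz without WT LPS (0.93) or cKO LPS (0.66), Stag1 without cKO NT (0.41) or cKO LPS (0.52), and Rad21 (0.72) and Stag2 (0.72) without cKO LPS. Beside these changes, 40 proliferation genes outside the pathway list summed to 301 and 390 CPM in the NT libraries and to 314 to 376 CPM with LPS. One of them, Tpx2, a spindle protein, rose from 7.59 and 7.30 CPM to 155 and 150 CPM, and without it the sums were 294 and 383 CPM in NT and 221 and 164 CPM with LPS. By library comparison 6 of 37 were higher and 23 lower in WT, near the 20.6% and 61.1% of all genes, and 5 and 30 of 38 in cKO (23.8% and 58.9% of all genes).

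**Figure D1:**
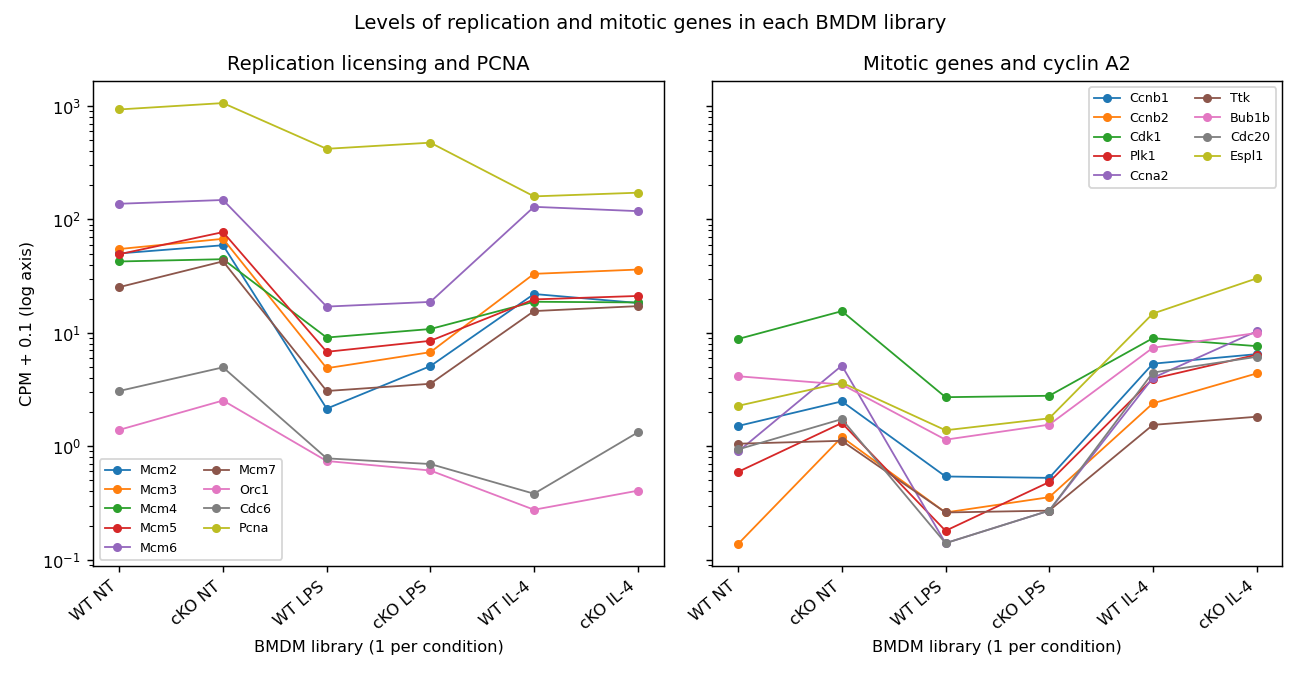
CPM plus 0.1 on a log axis for members of DNA replication and of mitosis in the 6 BMDM libraries, 1 point per library, with lines that only guide the eye. Mcm2 sat at 2.05 and 4.99 CPM with LPS against 50.1 and 59.1 CPM in NT, whereas Espl1 sat at 14.7 and 30.1 CPM with IL-4 against 2.18 and 3.54 CPM in NT.

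With IL-4, 9 of 16 replication genes fell, and 4 genes of mitosis, Espl1, Plk1, Cdc20 and Ccnb1, rose. Of 103 members, 7 rose and 20 fell by the same edgeR test, against 10.6% and 10.2% of all genes, and the median log2 change was -0.16 over members and 0.00 over all genes. Without the WT IL-4 library 1 rose and 10 fell (7.06% and 5.03% of all genes), and without the cKO IL-4 library 4 rose and 10 fell (6.50% and 5.39%). Without WT NT, WT LPS or cKO LPS 12, 11 and 12 rose, against 18.6%, 13.4% and 14.03% of all genes, and 26, 23 and 23 fell, against 16.5%, 11.8% and 12.35%. Of the members called in the whole fit, 1 of 7 that rose (Espl1) and 7 of 20 that fell (Pcna, Mcm4, Mcm5, Ccnd1, Cdkn1c, Gadd45g and Ywhah) passed in all 6 fits that left out 1 library. By library comparison, 26 members were higher and 31 lower in WT (38.6% and 21.7% of all genes), and 33 and 35 in cKO (42.2% and 24.8% of all genes). Scaled by TMM, which moves the median of all genes by 0.14 and 0.17, these became 20 and 38 in WT (29.2% and 29.2% of all genes) and 26 and 42 in cKO (33.9% and 33.3%).

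Of the 16 replication genes 9 fell with IL-4 and none rose, with a median of -1.09. Pcna stood at 160 and 172 CPM with IL-4 against 932 and 1061 CPM in NT and fell by 2.76 ± 0.22 on the log2 scale (SE, edgeR adjusted p = 0.000634). Here the order of the treatments was not that of the Mcm genes, since both IL-4 libraries were below both LPS libraries. Orc1 held 34 and 55 counts in NT and 5 and 8 counts with IL-4 and fell by 3.08 ± 0.60 (SE, edgeR adjusted p = 0.0152). Cdc6 held 78 and 110 counts in NT and 8 and 32 counts with IL-4 and fell by 2.67 ± 0.58 (SE, edgeR adjusted p = 0.0218). Mcm5 (-1.78), Mcm2 (-1.59), Cdc45 (-1.51), Mcm4 (-1.40), Mcm7 (-1.19) and Mcm3 (-0.99) fell by less than after LPS in these fitted values, a difference that was not tested, and Mcm6 (-0.38, edgeR adjusted p = 0.177) did not pass. With 1 library left out, Orc1 lost its call without cKO NT (-2.62) or WT IL-4 (-2.90), Cdc6 without WT IL-4 (-1.99), Mcm2 (-1.15) and Mcm7 (-1.0015) without cKO IL-4, Mcm3 without either IL-4 library (-1.12 and -0.86) and Cdc45 without cKO NT (-1.27), WT IL-4 (-2.02) or cKO IL-4 (-1.04).

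Ccnd1 fell with IL-4, to 72.4 and 95.1 CPM from 566 and 437 CPM, by 2.77 ± 0.28 on the log2 scale (SE, edgeR adjusted p = 0.0014). Ccne2 (-1.33) and Cdk4 (-1.08) fell with it, and Ccnd3 (-0.33) and Ccne1 (-0.48) did not pass. Cdkn1c had the lowest change, from 28.6 and 36.4 CPM to 1.52 and 1.26 CPM, a fall of 4.72 ± 0.31 (SE, edgeR adjusted p = 0.000411). Cdkn1b rose by 0.74 (edgeR adjusted p = 0.0339), whereas Cdkn1a, at 666 and 756 CPM, had 0.47 (edgeR adjusted p = 0.1908). Tfdp2 (1.83) and Rbl2 (0.96) rose, and Myc, at 29.2 and 39.995 CPM, had -1.02 ± 0.29 (SE, edgeR adjusted p = 0.0526). Gadd45g (-2.92), Chek1 (-1.88), Gadd45a (-1.32), Ywhah (-2.25), Tgfb3 (-2.19), Smad3 (-0.90) and Wee1 (-0.78) fell. Among these, Cdk4 lost its call without WT IL-4 (-1.11) or cKO IL-4 (-1.04), Gadd45a (-0.91) and Tfdp2 (1.44) without WT IL-4, Rbl2 (0.91 and 1.01) and Smad3 (-0.83 and -0.97) without either IL-4 library, Tgfb3 without cKO NT (-1.82) or cKO IL-4 (-1.60), Chek1 without cKO NT (-1.65) or either IL-4 library (-1.87 and -1.89), Cdkn1b without cKO NT (0.64) or either IL-4 library (0.67 and 0.81), Wee1 without WT NT (-0.62) or either IL-4 library (-0.56 and -1.01), and Ccne2 without either NT library (-1.32 and -1.35) or either IL-4 library (-1.34 and -1.32).

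Espl1 had the highest IL-4 change of the members. It held 57 and 80 counts in NT, 32 and 39 with LPS, and 417 and 786 with IL-4, and rose by 2.75 ± 0.27 on the log2 scale (SE, edgeR adjusted p = 0.0012). Plk1 held 13 and 34 counts in NT, 2 and 9 with LPS and 109 and 165 with IL-4, and rose by 2.31 ± 0.45 (SE, edgeR adjusted p = 0.0154). Cdc20 rose by 1.95 ± 0.41 and Ccnb1 by 1.47 ± 0.36 (edgeR adjusted p = 0.0192 and 0.0322). For these 4 genes both IL-4 libraries were above all 4 others.
Ccnb2 (cyclin B2) held 1 and 25 counts in NT and 65 and 112 with IL-4, and Ccna2 21 and 114 in NT and 111 and 267 with IL-4, where the groups overlapped for Ccna2 and not for Ccnb2. Their fitted log2 changes were 2.75 ± 0.80 and 1.40 ± 0.40 (SE, edgeR adjusted p = 0.0553 and 0.0535). Bub1b, of the spindle checkpoint, had 1.01 ± 0.30 (SE, edgeR adjusted p = 0.06), and Cdk1, at 8.88 and 7.54 CPM, had -0.69 (edgeR adjusted p = 0.1683). Proliferation genes outside the list summed to 369 and 447 CPM with IL-4 (363 and 436 without Tpx2), and by library comparison 23 of 40 were higher and 7 lower in WT (38.6% and 21.7% of all genes) and 20 and 12 in cKO (42.2% and 24.8%). With 1 library left out, Cdc20 lost its call without WT IL-4 (1.598) or cKO IL-4 (2.32), Plk1 without WT IL-4 (1.8003), and Ccnb1 without WT NT (1.17), WT IL-4 (1.38) or cKO IL-4 (1.55). The neutrophil markers summed above and, among the B cell markers, Cd79b were also higher in these 2 libraries, and their part in the mitotic values was not tested.

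**Figure D2:**
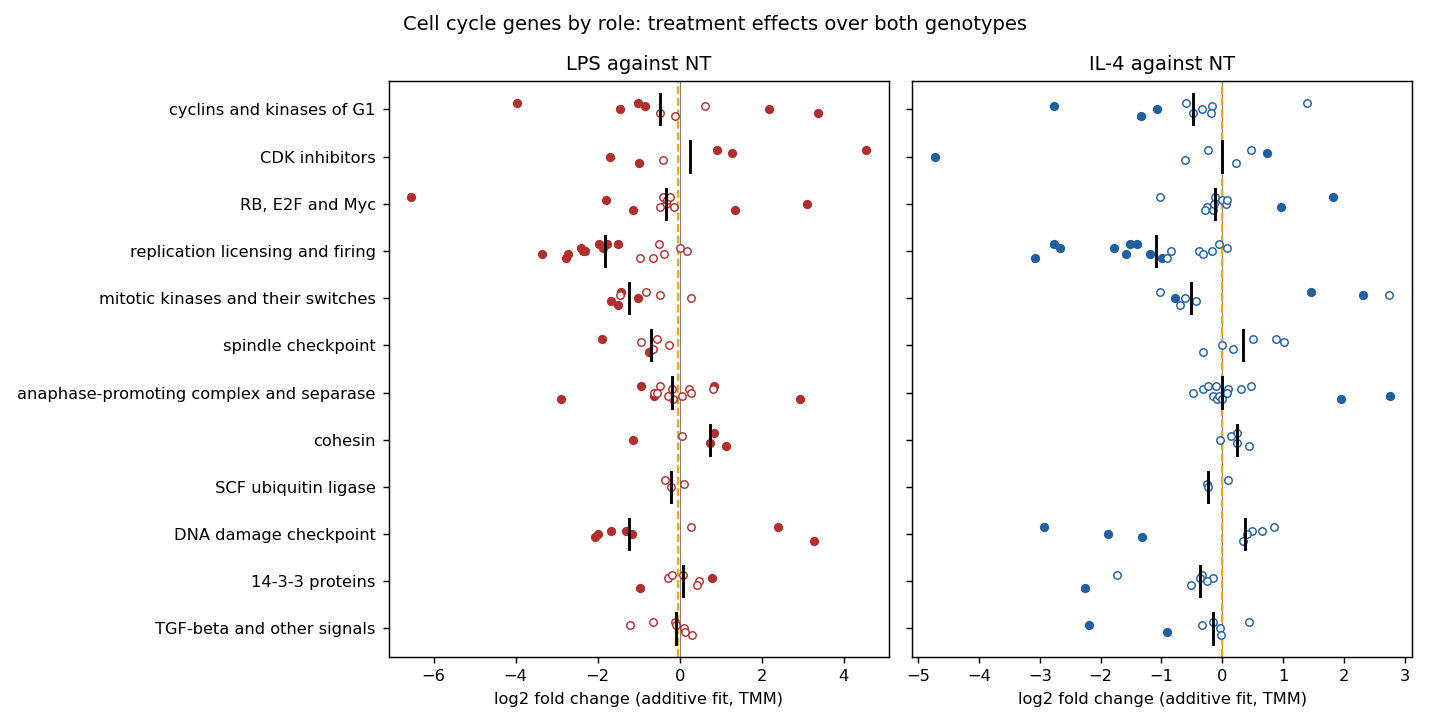
Fitted log2 fold changes after LPS and after IL-4 (x axis) for the tested members by role (y axis), with called members filled, others open, a black bar at the role's median and a dashed line at the median of all genes. Replication genes lie left of 0 in most cases, with medians of -1.82 and -1.09.

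Levels of different genes were set side by side on the deposited TPM, which scale transcripts by their length. In WT NT, Pcna (1039 TPM), the 14-3-3 gene Ywhah (940 TPM) and Cdkn1a (357 TPM) were the highest members, and Ccnd1 (228 TPM) was above Ccnd3 (23.6 TPM) and Ccne1 (1.65 TPM). With LPS, Cdkn1a (457 TPM) and Pcna (444 TPM) were close in WT, and in cKO their order was the reverse (437 and 534 TPM). With IL-4, Cdkn1a led in both libraries (613 and 690 TPM) and Ccnd1 (29.7 and 38.1 TPM) was close to Ccnd3 (24.6 and 23.4 TPM).
Summed by role in CPM, replication genes stood at 1418 and 1637 in WT and cKO NT and at 522 and 586 with LPS and 518 and 529 with IL-4. Pcna made up much of these sums, and without it they were 486 and 576 in NT, 103 and 111 with LPS and 359 and 357 with IL-4, so that the LPS sums then lay below the IL-4 sums. The mitotic kinases and switches summed to 62.04 and 68.2 CPM in NT, 26.0 and 25.2 with LPS and 53.1 and 62.5 with IL-4, so their IL-4 and NT sums were close while single members differed.

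**Figure D3:**
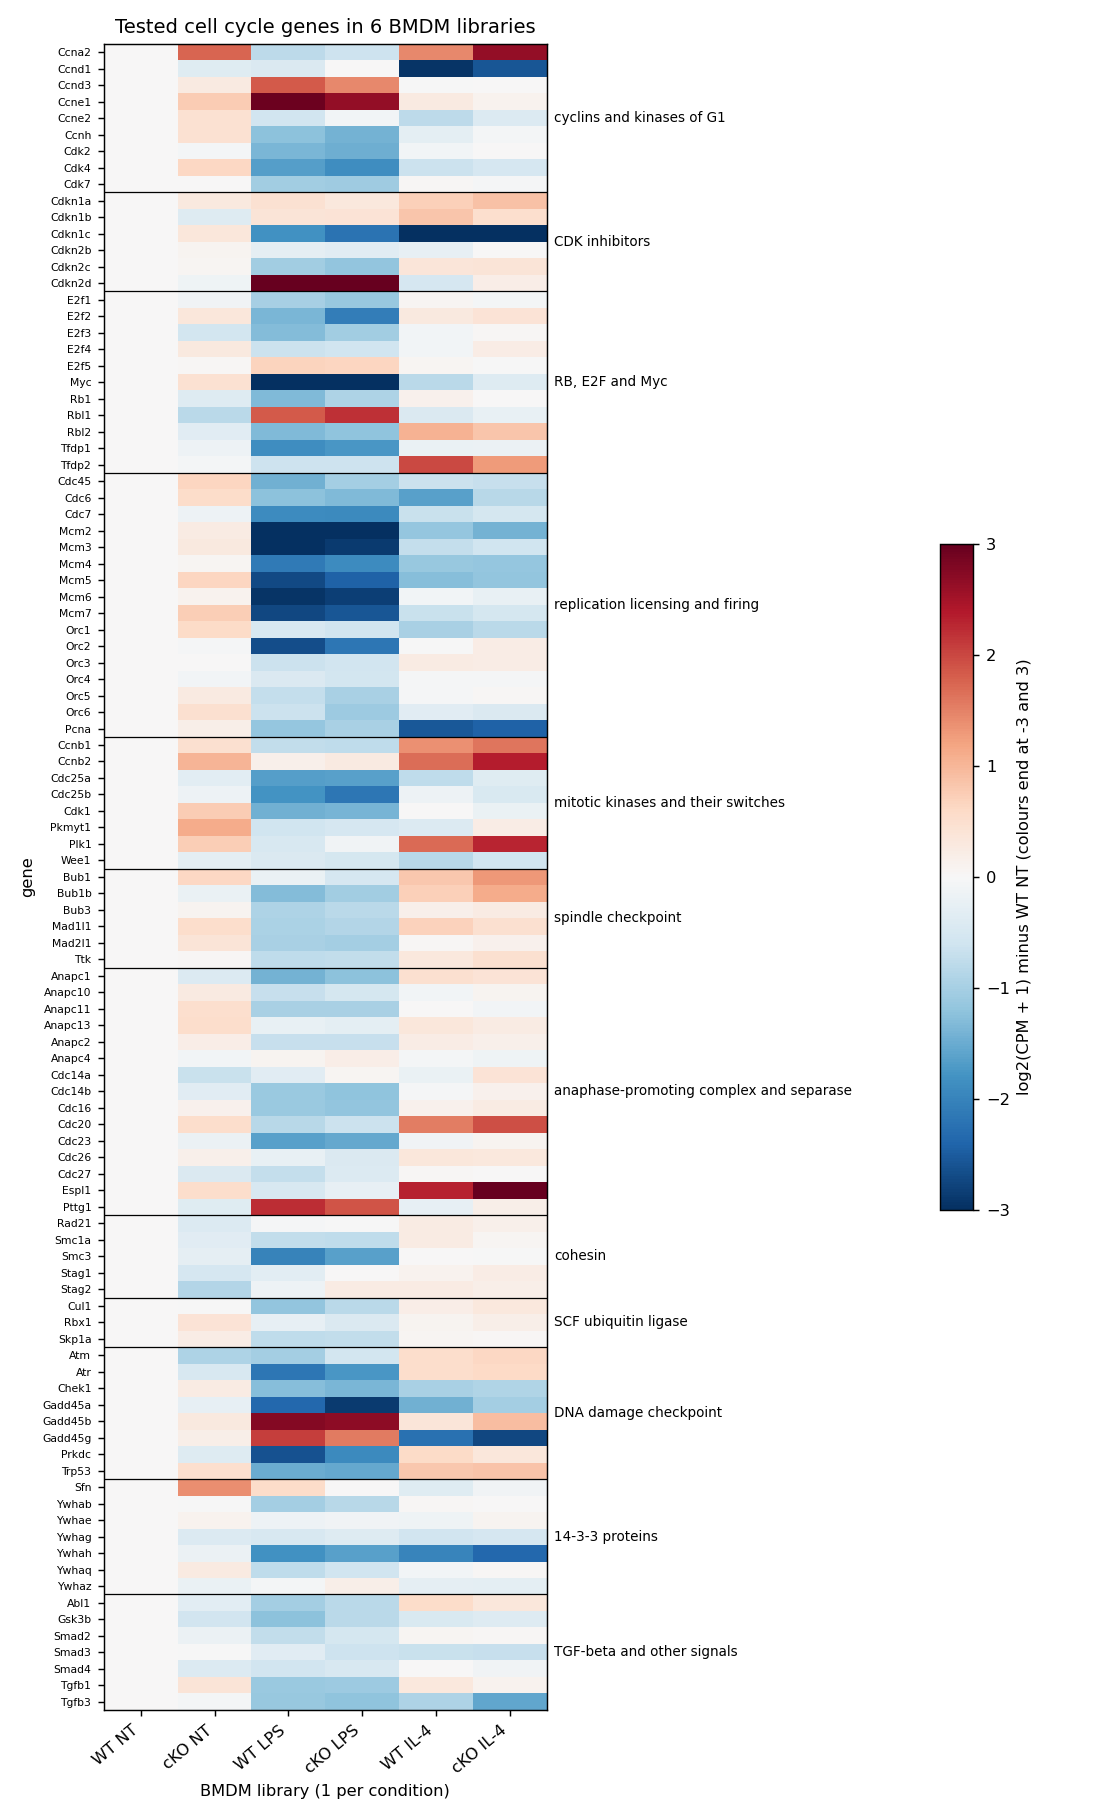
Difference of log2(CPM + 1) from the WT NT library for the tested members (rows, by role) in the BMDM libraries (columns), on library totals, with colours limited to -3 and 3. The LPS columns hold the replication genes in the colour for lower values, including Mcm2 with 2.05 and 4.99 CPM.

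Between the genotypes no member passed the edgeR test over the 3 treatments (0% of all genes higher and 0% lower, 0 of 103 members in either direction). In that fit the 3 treatments stood in for replicates of the genotype. A genotype difference that changed with treatment therefore counted as spread, and the fit could not detect one limited to 1 treatment as such. At an unadjusted p under 0.05 there were 403 genes (3.08%) and 4 members (3.88%), and DESeq2 called 0 members, where it called 0.283% of all genes higher and 0.023% lower. The highest fitted change of a member was that of Ccna2, 1.95 ± 0.39 (SE, edgeR adjusted p = 0.6995). The single pairs are therefore given as comparisons of libraries. In NT, 39 of 103 members were higher in the library labelled cKO and 24 lower, where 21.7% and 25.9% of all genes were, and the median was 0.07 against -0.01 over all genes.
Of 16 replication genes 8 were higher and 0 lower, and of 8 mitotic kinases and switches 5 and 2. Of 9 genes in the group of G1 cyclins and kinases, in which Ccna2 was counted, 6 were higher and 1 lower. Of 5 cohesin members 0 were higher and 4 lower. Ccna2 and the mitotic genes Ccnb2 and Plk1 were at few counts. Ccna2 held 114 counts in cKO and 21 in WT, a ratio of CPM of 6.30 (95% interval 3.93 to 10.6). Ccnb2 held 25 counts and 1 count (ratio 29.0, 4.75 to 1191), and Plk1 34 and 13 (3.03, 1.56 to 6.26). Sfn, a 14-3-3 protein, held 124 and 38 counts (3.78, 2.61 to 5.597), and Pkmyt1, which restrains Cdk1, 181 and 83 (2.53, 1.94 to 3.32). Among genes at higher counts, Mcm7 (963 and 661), Mcm5 (1745 and 1292) and Cdk4 (4321 and 3252) had ratios of 1.69, 1.57 and 1.54.
Atm, the DNA damage kinase, held 283 counts in cKO and 652 in WT (ratio 0.503, 0.436 to 0.580), the cohesin gene Stag2 1343 and 2867 (0.543, 0.509 to 0.580) and Rbl1 343 and 718 (0.554, 0.486 to 0.631). Transcript length moved with this pair. The median log2 difference was -0.18 over all longer genes and 0.16 over all shorter ones, and -0.08 and 0.20 over members, in a split at the median length that was chosen after the data were seen. Its part was not tested. Of 38 proliferation genes outside the list 19 were higher and 0 lower in cKO (21.7% and 25.9% of all genes).

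With LPS, 18 of 97 members were higher in the library labelled cKO and 11 lower (17.1% and 8.76% of all genes), or 14 and 12 scaled by TMM (14.5% and 11.2%). Mcm2 held 117 counts in cKO and 51 in WT (ratio 2.44, 1.74 to 3.46), Prkdc 113 and 64 (1.88, 1.37 to 2.59) and Orc2 146 and 102 (1.52, 1.17 to 1.98). At the other end, Gadd45a (76 and 127 counts, ratio 0.636), Cdkn2d (1636 and 2510, ratio 0.693) and Gadd45g (2993 and 4542, ratio 0.7004) were lower. No mitotic kinase or spindle checkpoint gene was called among the 6 and 5 tested.
With IL-4, 18 of 102 were higher and 7 lower (13.8% and 10.5% of all genes). Ccna2 held 267 counts in cKO and 111 in WT (ratio 2.61, 2.09 to 3.29), Espl1 786 and 417 (2.05, 1.82 to 2.31) and Cdkn2d 186 and 113 (1.79, 1.41 to 2.28). Tfdp2 (212 and 392, ratio 0.588), Gadd45g (144 and 234, ratio 0.669) and Bmyc (395 and 638, ratio 0.673) were lower. Of 8 mitotic kinases and switches 4 were higher and 1 lower. LPS response genes summed to 1583 CPM in this cKO library and to 377 CPM in its WT partner, and neutrophil markers to 382 to 514 CPM. Their part in these differences was not tested.

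**Figure D4:**
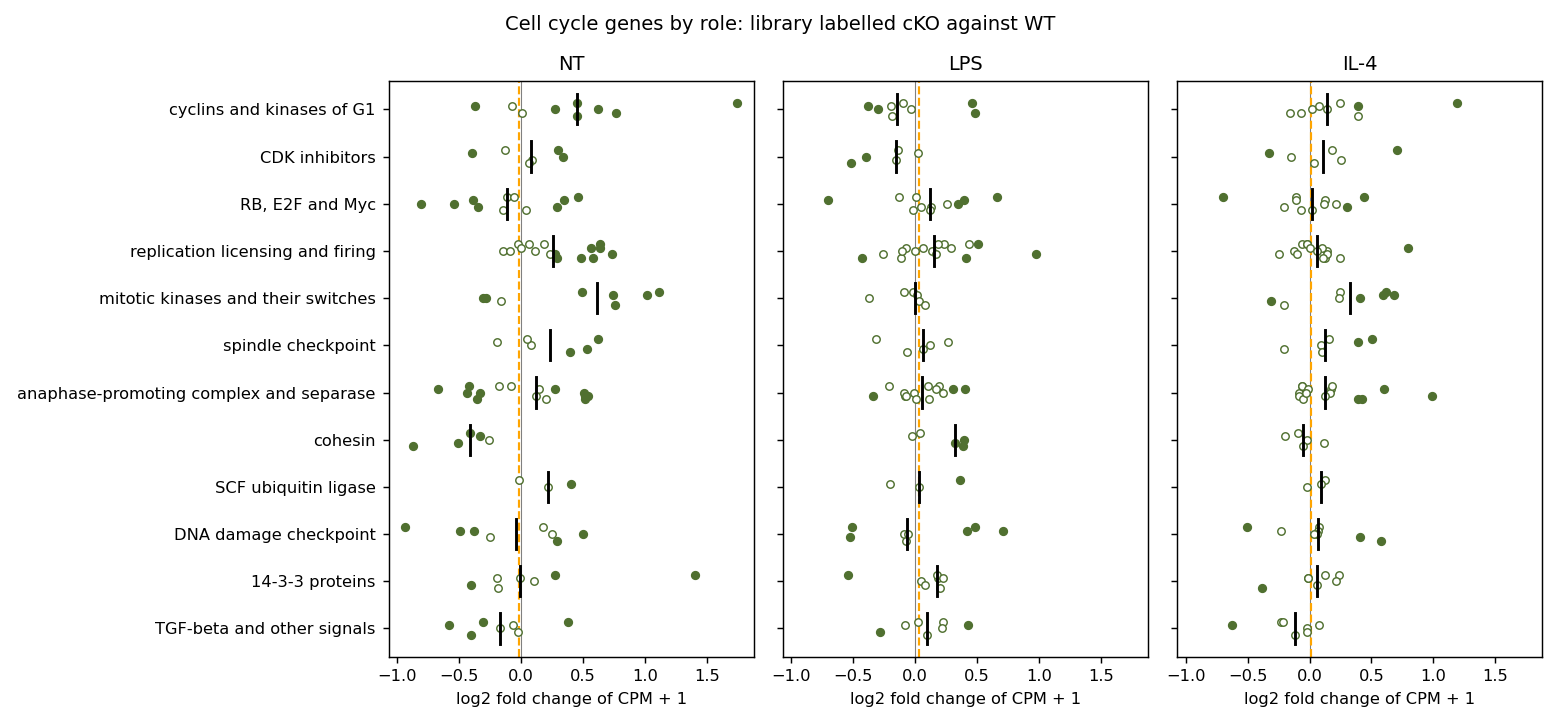
Log2 difference of the library labelled cKO from WT on log2(CPM + 1) (x axis) in NT, LPS and IL-4, by role (y axis), with called members filled, others open, a black bar at the role's median and a dashed line at the median of all genes. In NT the highest is Ccna2 (1.75) and the lowest Atm (-0.94).

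In the Zmynd8 lines, values were compared on log2(value + 1) of the deposited signal, with a mean value of at least 1, a fold of at least 1.2 and no test. The comparisons share the WT Zmynd8 library, and these libraries hold the neutrophil and B cell transcripts described above. In D/E-A, 44 of 103 members were higher and 30 lower than in WT Zmynd8 (36.7% and 35.9% of all genes), with a median of 0.15 over members and 0.02 over all genes. The D/E-A table lists no gene under 21 reads in WT Zmynd8. Ribosomal RNA took 17.1% of WT Zmynd8 reads, 8.17% of D/E-A reads and 13.8% of Zmynd8 KO reads, and on reads without it, with the exact binomial test, 26 members were higher and 33 lower (24.0% and 37.3% of all genes), and the median over members changed sign, to -0.0341, with -0.15 over all genes. The read ratios below are on that basis.
Rbl1 held 1727 reads in D/E-A and 648 in WT Zmynd8 (ratio 2.46, 95% interval 2.25 to 2.70), Stag2 2159 and 1040 (1.92, 1.78 to 2.07) and the phosphatase gene Cdc14a 189 and 90 (1.94, 1.5004 to 2.52). Sfn held 58 and 218 (0.246, 0.181 to 0.329), Anapc11, a catalytic subunit of the anaphase-promoting complex, 331 and 839 (0.364, 0.3197 to 0.414) and Pkmyt1 154 and 316 (0.450, 0.369 to 0.547). By role, of 11 RB, E2F and Myc genes 7 were higher and 1 lower by value and 5 and 2 by reads, of 5 cohesin members 4 and 0 by value and 3 and 0 by reads, and of 15 anaphase-promoting complex members 4 and 7 by value and 3 and 6 by reads. Longer genes were higher overall (median 0.32 over all longer and -0.19 over all shorter genes, 0.28 and 0.09 over members).

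In Zmynd8 KO, 49 of 107 members were higher and 18 lower than in WT Zmynd8 (33.8% and 36.5% of all genes), with a median of 0.23 against -0.03. On reads without ribosomal RNA 26 were higher and 21 lower (17.9% and 24.5% of all genes), with medians of 0.108 over members and -0.0551 over all genes. Rbl1 held 1557 reads in KO and 648 in WT Zmynd8 (ratio 2.02, 1.84 to 2.22), Myc 414 and 173 (2.01, 1.68 to 2.42) and E2f3 261 and 121 (1.81, 1.46 to 2.27). Sfn held 128 and 218 (0.494, 0.394 to 0.617), Pkmyt1 224 and 316 (0.596, 0.50 to 0.710) and E2f1 208 and 282 (0.620, 0.516 to 0.745). Of 16 replication genes 8 were higher and 1 lower by value and 3 and 1 by reads. Mcm2 held 221 reads in WT Zmynd8, 400 in KO and 357 in D/E-A.
By deposited value, neutrophil markers were lower than in WT Zmynd8 for 8 of 8 genes in D/E-A and 5 of 8 in KO, where 35.9% and 36.5% of all genes were lower, and by reads without ribosomal RNA for 8 and 5 as well (37.3% and 24.5%). Macrophage markers were higher for 7 of 9 and 8 of 9 by value (36.7% and 33.8% of all genes) and for 5 and 4 by reads (24.0% and 17.9%). Their part in the differences was not tested.

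In the p65 lines, K122R and p65 KO share the WT p65 library. In K122R, 18 of 103 members were higher and 40 lower (30.8% and 32.5% of all genes), with a median of -0.18 over members and 0.01 over all genes, and by reads without ribosomal RNA 11 were higher and 50 lower (12.3% and 29.5% of all genes), with medians of -0.29 over members and -0.14 over all genes. Cdkn1a held 5846 reads in K122R and 2379 in WT p65 (ratio 2.32, 95% interval 2.21 to 2.44), Pkmyt1 186 and 86 (2.04, 1.57 to 2.67) and Ywhah 4528 and 2811 (1.52, 1.45 to 1.595). Smad3, which carries TGF-β signals, held 58 and 191 (0.287, 0.210 to 0.387), Cdc6 68 and 204 (0.315, 0.236 to 0.416) and Ttk 79 and 216 (0.345, 0.264 to 0.449).
Of 9 mitotic kinases and switches 1 was higher by value, Pkmyt1, and 5 were lower, among them Plk1 at 381 reads against 683 and Ccnb1 at 830 against 1466. Ccna2 held 684 against 1157. By value, of 16 replication genes 2 were higher and 8 lower, and of 7 14-3-3 proteins 5 and 1. By reads these were 0 and 10, and 3 and 1, with 1 and 6 for the mitotic kinases and switches. Gadd45a held 26 reads and 3 (ratio 8.19, 2.51 to 42.3). Of 40 proliferation genes outside the list 26 were lower and 1 higher by value, and 29 and 0 by reads.

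In p65 KO, 13 of 105 members were higher and 30 lower (26.3% and 25.7% of all genes), with a median of -0.10 against 0.01, and by reads without ribosomal RNA 6 were higher and 21 lower (9.92% and 9.91% of all genes). Cdc6 held 89 reads in KO and 204 in WT p65 (ratio 0.452, 0.348 to 0.583), Chek1 145 and 250 (0.601, 0.486 to 0.740) and Smad3 126 and 191 (0.683, 0.541 to 0.860). Gadd45g held 237 and 110 (2.23, 1.77 to 2.82), Cdkn1a 3892 and 2379 (1.69, 1.61 to 1.78) and Anapc11 167 and 113 (1.53, 1.199 to 1.96). Of 16 replication genes 0 were higher and 9 lower by value and 0 and 7 by reads, and of 4 CDK inhibitors tested 3 were higher and 0 lower by both. Of 40 proliferation genes outside the list 21 were lower and 1 higher by value, and 14 and 0 by reads. Cdkn1a was higher and Cdc6 and Smad3 were lower in both p65 KO and K122R, and since both were set against the same WT p65 library this is not independent support.

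The lines differed in level, not tested since their tables were made apart. The mitotic kinases and switches summed to 83.4 to 102 RPM in the Zmynd8 lines and 230 to 332 in the p65 lines, and replication genes to 331 to 381 and 654 to 923. Spindle checkpoint genes summed to 88.3 to 103 and 235 to 327. Myc held 173 to 414 reads in the Zmynd8 lines and 4545 to 6521 in the p65 lines. Cdkn2b, which encodes the Cdk4 inhibitor p15, held 29, 13 and 21 reads in WT Zmynd8, Zmynd8 KO and D/E-A, and the p65 tables do not list it. CDK inhibitors were the reverse of the mitotic groups, at 536 to 662 and 205 to 396 RPM.

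**Figure D5:**
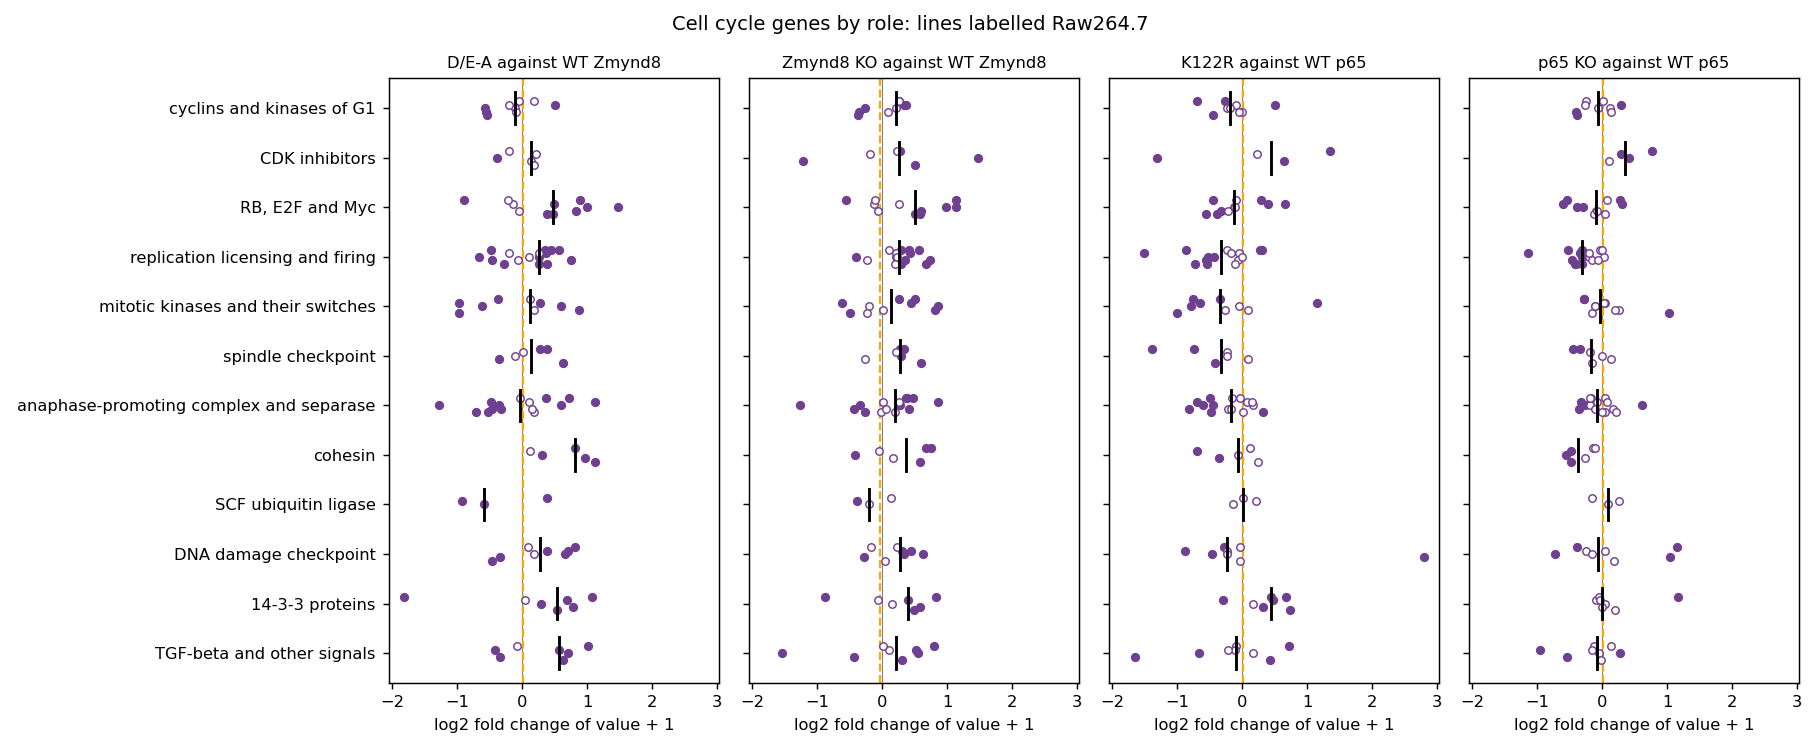
Log2 difference from WT Zmynd8 or WT p65 on log2(value + 1) (x axis) for the lines labelled Raw264.7, by role (y axis), with members past a fold of 1.2 filled, others open, a black bar at the role's median and a dashed line at the median of all genes. Most replication genes lie left of 0 in K122R and p65 KO, with medians of -0.33 and -0.31.

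The IL-4 table adds 11 protein-coding genes to the pathway that the LPS table does not list there, among them cyclin D2, Cdk6 and Mdm2. Ccnd2 stood at 5.23 and 3.36 CPM in WT and cKO NT, at 43.7 and 71.8 CPM with LPS and at 4.05 and 8.496 CPM with IL-4, and rose after LPS by 4.31 ± 0.41 on the log2 scale (SE, edgeR adjusted p = 4.24e-04). Mdm2, which degrades p53, rose after LPS by 1.95 ± 0.21 (SE, edgeR adjusted p = 6.75e-04), from 210 and 195 CPM to 463 and 534 CPM. Cdk6 fell by 1.39, from 163 and 165 CPM to 30.2 and 52.2 CPM, and stood at 46.3 and 62.9 CPM with IL-4. Chek2 fell after LPS by 1.56 and rose after IL-4 by 1.14 ± 0.23 (SE, edgeR adjusted p = 0.0161). Skp2, which marks Cdkn1b for degradation, fell after LPS by 1.13.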

How the data were processed

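RNA-seq tables of 12 libraries were used, and the other 35 of 47 samples were not analysed here. Reads had been aligned by the authors with TopHat to the mm10 transcriptome. For BMDMs the authors deposited estimated counts, which were rounded to whole numbers and divided by library totals (CPM), and TPM, used for levels between genes. For the lines the authors deposited a signal, found to be whole reads divided by a size factor (within 0.05 of a read for all values but that of Zmynd8 in Zmynd8 KO, which was not used as a check of the label). The authors' fold changes and p-values were not used, nor were 2 per-sample columns that matched no sample. The IL-4 counts rest on another annotation, with another length for 18963 genes.

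Groups were taken from the sample labels. BMDM genes averaging 10 counts or more were tested with edgeR 4.0.16 (additive in genotype and treatment) and, for pairs of libraries, with the exact binomial test (scipy 1.17.1). Adjustment was by Benjamini-Hochberg over every tested gene. P-values of pairs reflect counting error only. Scripts were tested on simulated data. Alternatives were DESeq2 1.42.0, other scalings, pseudocounts, filters and folds, and leaving out each library.

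Members, roles and lists were chosen with earlier results of these data known. Genes named were a list of cyclins, CDKs, inhibitors and regulators, plus, in each comparison, the 3 highest and 3 lowest called members with a mean of at least 50. Other members were named by role after their values were seen.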

Additional observations from a re-analysis of the deposited data

Results flagged for a closer look

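In 10 cases a named member was called in opposite directions under the same contrast in different settings, counting members of the fixed gene list with a mean of at least 50 counts whose calls and directions were the same on library totals and by TMM. With 1 library per condition the difference between the settings was not tested, and all values are log2 differences on log2(CPM + 1). After IL-4, Rbl1 was -0.43 in WT and 0.59 in cKO. The library labelled cKO, set against WT, gave -0.81 for Rbl1 in NT and 0.35 with LPS, -0.39 and 0.39 for Rb1, 0.77 and -0.31 for Ccne1, and 0.27 and -0.39 for Ccnd3. Ccnd1 was -0.37 in NT, 0.46 with LPS and 0.39 with IL-4. Pttg1 was -0.36 in NT, -0.34 with LPS and 0.42 with IL-4. Cdc25a was -0.31 in NT and 0.41 with IL-4. Cdkn2d was -0.52 with LPS and 0.70 with IL-4, and Gadd45a -0.52 and 0.41. Ccnd1 after LPS had opposite directions on library totals alone, -0.44 in WT and 0.39 in cKO, against 0.24, which was not called, and 1.00 by TMM.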

How the results depend on the processing

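No paired analysis was possible because no label gives a replicate number that could pair libraries; the edgeR fit, additive in genotype, compares treatments within each genotype. With a fold of at least 1.5, members higher numbered 11 for LPS in cKO (18.9% of all genes) and 15 for IL-4 in WT (21.3%), and members higher and lower, with the shares of all genes, numbered 12 and 4 for cKO in NT (6.98% and 10.9%), 3 and 1 with LPS (4.54% and 2.13%), 8 and 2 with IL-4 (5.34% and 2.70%), 23 and 11 in D/E-A (20.8% and 22.6%), 16 and 5 in Zmynd8 KO (17.4% and 25.4%), 8 and 18 for K122R (18.3% and 17.6%), and 6 and 4 for p65 KO (15.4% and 12.4%). With a fold of at least 2, they were 7 and 47 for LPS in WT (10.5% and 32.8%), 8 and 48 in cKO (13.2% and 32.8%), 9 and 10 for IL-4 in WT (10.0% and 6.19%), 12 and 16 in cKO (15.0% and 6.09%), 4 and 0 for cKO in NT (0.971% and 2.86%), 0 and 0 with LPS (0.573% and 0.331%), 1 and 0 with IL-4 (1.56% and 0.408%), 6 and 3 in D/E-A (6.94% and 11.4%), 3 and 3 in Zmynd8 KO (8.29% and 17.3%), 3 and 5 for K122R (10.5% and 9.46%), and 4 and 1 for p65 KO (9.26% and 6.58%). A stricter fold leaves fewer members by construction.

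TMM and median-ratio scaling both gave 21 members higher for LPS in WT, and changed the median of members for IL-4 in WT to -0.16 and -0.16. They turned Wee1 (0.19 and 0.22) and Ccnd1 (0.24 and 0.26) for LPS in WT and Rb1 (0.0565 and 0.1013) for LPS in cKO. On recovered reads members higher were 30 (Zmynd8 KO, 21.3% of all genes), 11 (K122R, 12.03%) and 6 (p65 KO, 9.86%), and without ribosomal RNA 26 (D/E-A, with a median of -0.0341), 26, 11 and 6. Leaving out 1 library gave 1 to 12 members that rose with IL-4 (6.50% to 18.6% of all genes) and 10 to 26 that fell (5.03% to 16.5%). The cause of these changes was not tested. DESeq2, the pseudocount of 0.1 and edgeR with other size factors kept every count of members within 1.5 times. Of 47 named edgeR calls and values, DESeq2 lost 2 (Cdkn2c and Ttk after LPS), and leaving out 1 library lost 4 to 14. Depth limits the low members: the ratio for Plk1 after LPS in WT, from 2 and 13 counts, had an interval from 0.0177 to 0.715.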
